A study of Mus musculus with 12 samples.

Results

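The Hedgehog ligands Shh and Ihh, the receptors and ligand binders Ptch1, Smo and Hhip, and the transcription factors Gli1, Gli2 and Gli3 were followed across 12 mouse pancreatic tumors. The rule that picks these 8 genes uses their names and no measured value, and they come from the 22630 genes for which the deposited files give a count and an RPKM (reads scaled by exon length and by the tumor's mapped reads). RNA was sequenced from whole subcutaneous tumors that grew in NSG mice (8 to 10 weeks old, without mature lymphocytes) from 500000 injected KCip53-1 cells each. KCip53-1 is a single line sorted from a primary pancreatic tumor of a mouse with Ptf1a-Cre, and it carries a p53 R270H transgene that doxycycline (dox) turns on, so that all groups share the line's background and the transgene itself. By the sample labels, 4 no-dox tumors had 0 days of dox, 4 plus-dox tumors had 36 days, and 4 off-dox tumors had 33 days followed by 3 days without it, with dox given at 0.2 g/L in water with 5% sucrose. The study's text instead places dox withdrawal at the time tumors became palpable. The tumors of each group carry the numbers 1 to 4 of the labels.

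Hedgehog ligands are secreted, lipid-modified proteins. Ptch1 holds the membrane protein Smo inactive until a ligand binds Ptch1, and active Smo, working at the primary cilium, lets the Gli factors switch on target genes, among them Gli1, Ptch1 and Hhip themselves. Gli1 acts as an activator, Gli2 mainly as an activator and Gli3 largely as a repressor, and Hhip is a surface protein that binds ligand away from Ptch1. In pancreatic cancer, ligand made by the tumor epithelium is known to act on surrounding stromal fibroblasts.

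Counted reads ran from 19845923 to 33137609 per tumor, and the share of mapped reads that fell on genes was 88.4% to 89.4% in no-dox, 82.2% to 87.1% in plus-dox and 81.1% to 85.8% in off-dox tumors, so that it separated the no-dox group from the other 8 tumors. Trp53, which the transgene encodes, measured 40.1 to 57.4 RPKM in no-dox, 40.4 to 56.0 in plus-dox and 41.6 to 45.4 in off-dox tumors. These ranges overlap, so no rise of Trp53 RNA with dox was visible. The paper reports, from PCR and sequencing, that the KCip53 lines it examined had lost the wild-type sequence. As the gene's count does not part mutant from other Trp53 reads, host cells included, it gives no check of the dox labels. Over the 10 epithelial markers examined (Epcam, Cdh1, Krt8, Krt18, Krt19, Krt7, Cldn4, Cldn7, Ocln and Esrp1), the mean log2 CPM (counts scaled to the library total) was 4.68 in plus-dox tumor 2 and 6.15 in off-dox tumor 4, against 6.51 to 8.22 in the other 10 tumors. Where leaving these tumors out ends a call or turns a direction, the value without them is given. Host and tumor cells were sequenced together, so a lower value can mean fewer cells of a type or less RNA per cell, and these cannot be told apart. The tumors were taken as independent, although mice bore tumors in pairs and the sources used here do not say which ones came from the same animal.

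Start-site sequences were taken from the RefSeq promoter table (build GRCm38.p6, 250 bases before to 50 bases after the start) for the 6 genes that matched, while Shh and Gli1 did not match. Each was searched on both strands for the letters GACCACCCA, the 9-letter site known to bind Gli factors, and for CCACCC, which is the core within it. The 9-letter site was found in 0 of the 6 sequences and in 0.253% of the 32851 promoters of the table. The core was found in 31.5% of all promoters, and in Ihh and Gli2 at 2 places each, in Gli3, Hhip and Smo at 1 place each and in Ptch1 at 0 places. Ptch1 is a textbook Gli target and Ihh is the ligand measured here. Gli2 had no overlap in log2 CPM between plus-dox and no-dox tumors, as had 8.86% of all 17561 genes tested. So these 3 sequences are shown with core matches on either strand in capitals.
Ihh promoter, GRCm38.p6 chr1:74951623-74951922, minus strand: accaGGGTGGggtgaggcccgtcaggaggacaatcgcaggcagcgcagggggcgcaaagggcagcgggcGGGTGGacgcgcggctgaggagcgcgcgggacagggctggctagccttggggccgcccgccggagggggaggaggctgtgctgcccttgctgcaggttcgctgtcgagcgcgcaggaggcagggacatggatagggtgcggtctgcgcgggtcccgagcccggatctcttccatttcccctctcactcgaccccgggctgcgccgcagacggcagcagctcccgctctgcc
Ptch1 promoter, GRCm38.p6 chr13:63565686-63565985, minus strand: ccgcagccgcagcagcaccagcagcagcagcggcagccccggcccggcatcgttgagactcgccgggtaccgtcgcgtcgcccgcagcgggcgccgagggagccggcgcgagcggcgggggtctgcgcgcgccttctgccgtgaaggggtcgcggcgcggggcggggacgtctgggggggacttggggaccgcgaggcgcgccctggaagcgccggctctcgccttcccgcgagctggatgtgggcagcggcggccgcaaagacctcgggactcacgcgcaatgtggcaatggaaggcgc
Gli2 promoter, GRCm38.p6 chr1:119053570-119053869, minus strand: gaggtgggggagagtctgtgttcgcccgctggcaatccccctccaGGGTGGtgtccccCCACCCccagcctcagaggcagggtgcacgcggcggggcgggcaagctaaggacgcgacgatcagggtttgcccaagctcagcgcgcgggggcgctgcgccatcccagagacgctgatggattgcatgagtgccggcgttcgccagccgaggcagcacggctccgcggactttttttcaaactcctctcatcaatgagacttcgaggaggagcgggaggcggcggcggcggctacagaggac
All 3 are rich in G and C, at 72.7% for Ihh, 76.3% for Ptch1 and 67.3% for Gli2, more than 93.9%, 97.1% and 86.2% of the promoters in the table. A match of letters is a description of this window only, and these data hold no measurement of binding.

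The 8 genes covered a wide range of levels per length. By mean RPKM over the 12 tumors the order was Smo (18.1), Ptch1 (5.55), Ihh (2.80), Gli1 (1.99), Gli3 (1.81), Gli2 (0.887), Hhip (0.483) and Shh (0.0484). Smo exceeded Ptch1, and Ptch1 exceeded Ihh, in 12 of 12 tumors. Ihh exceeded Gli1 in 6 of 12 tumors and Gli1 exceeded Gli3 in 8 of 12, so neighbors in this middle stretch changed place from tumor to tumor. Gli3 was above Gli2 in 11 of 12 tumors, Gli2 above Hhip in 9 of 12, and Hhip above Shh in all 12.

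**Figure D1:**
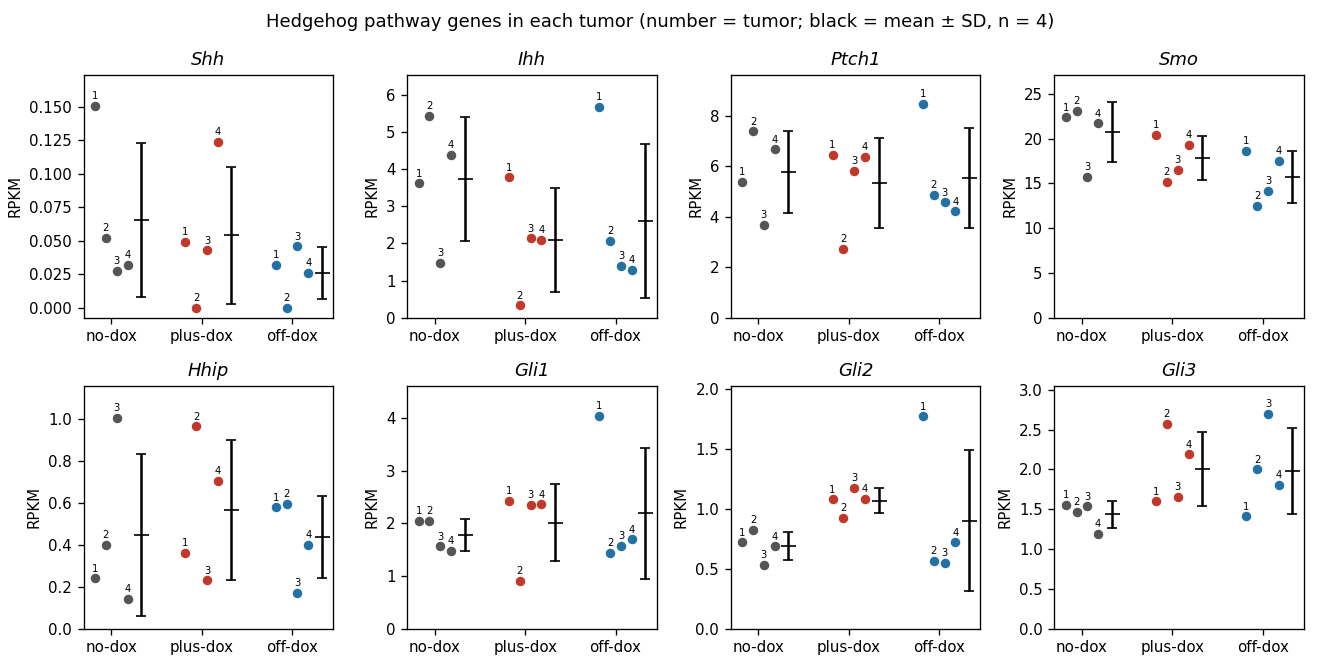
RPKM of each of the 8 genes (vertical axes, one scale per gene) in the 4 tumors of each group, with the tumor number above each point and the mean ± SD in black. The plus-dox tumors of Gli2 (0.924 to 1.18 RPKM) all lie above the no-dox tumors (0.534 to 0.822 RPKM), as those of Gli3 do by a narrow gap, and off-dox tumor 1 has the highest Ihh, Ptch1, Gli1 and Gli2 of all 12. In log2 CPM, where Gli3 overlaps, 8.86% of all genes tested had no overlap between these 2 groups.

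Of the ligands, Shh was near the detection limit and Ihh was well above it. Shh (mm9 chromosome 5, 28783380 to 28793523, minus strand, 2549 bp of exon) had 13, 4, 2 and 3 counts in no-dox tumors 1 to 4, 3, 0, 4 and 8 counts in plus-dox tumors 1 to 4, and 2, 0, 3 and 2 counts in off-dox tumors 1 to 4. A limit of 3 counts, which a count of 0 allows, corresponds to between 0.0317 and 0.0493 RPKM of Shh, so that 8 of the 12 tumors were at or under the limit. No-dox tumor 1, with the highest Shh, also had the highest score of the epidermis and hair follicle markers (3.43 on the log2 CPM scale, against −0.14 to 1.72 in the other tumors), and of the 9 markers 4 (Krt5, Krt25, Krt71 and Tchh) were highest in it. The other 5, among them Krt27 and Lor in off-dox tumor 4, were highest in other tumors. Over the 12 tumors, Shh had r of 0.35 and rho of −0.19 with this score (permutation, adjusted p = 0.47 and 0.75). The part of skin in the Shh counts was not tested. Fitted Shh differences rest on sums of 22, 15 and 7 counts in no-dox, plus-dox and off-dox tumors and were not significant in any comparison (edgeR adjusted p = 0.88, 0.47 and 1).

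Ihh (mm9 chromosome 1, 74991892 to 74998225, minus strand, 2444 bp of exon) varied most. In no-dox tumors 1 to 4 its level was 3.62, 5.42, 1.47 and 4.39 RPKM, in plus-dox tumors 3.77, 0.337, 2.13 and 2.09 RPKM, and in off-dox tumors 5.67, 2.06, 1.4 and 1.28 RPKM. High and low tumors occurred in every group, and the groups overlapped. The highest value was 16.8-fold the lowest, and the SD of Ihh in log2 CPM was larger than that of 95.1% of the 14548 genes with a mean over 0.25 RPKM. Group means were 3.72 ± 1.67 (no-dox), 2.08 ± 1.4 (plus-dox) and 2.60 ± 2.07 RPKM (off-dox; SD, n = 4). The log2 fold change was −0.83 for plus-dox vs no-dox (standard error 0.64, edgeR adjusted p = 0.55) and −0.49 for off-dox vs no-dox (standard error 0.63, edgeR adjusted p = 0.69). The 95% interval for plus-dox vs no-dox, from −2.28 to 0.61, takes in both a large loss and a modest gain. Single tumors set the size of both changes, as the former was −0.48 without plus-dox tumor 2 and the latter −1.19 without off-dox tumor 1 (edgeR adjusted p = 0.76 and 0.26).

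Ptch1, the ligand receptor and itself a target of the pathway, was present in every tumor. Ptch1 (mm9 chromosome 13, 63612841 to 63666828, minus strand, 4305 bp of exon) measured 5.40, 7.38, 3.67 and 6.67 RPKM in no-dox tumors 1 to 4, 6.44, 2.72, 5.82 and 6.36 RPKM in plus-dox tumors and 8.46, 4.87, 4.57 and 4.22 RPKM in off-dox tumors. The low plus-dox tumor 2 and the high off-dox tumor 1 stood away from the other 3 tumors of their groups. Group means were close, at 5.78 ± 1.63, 5.34 ± 1.76 and 5.53 ± 1.97 RPKM (SD, n = 4 each). The log2 fold change was −0.11 for plus-dox vs no-dox (95% interval −0.78 to 0.57) and −0.04 for off-dox vs no-dox (−0.71 to 0.64), and without plus-dox tumor 2 the former was 0.11.

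Smo, the signal transducer, was the most abundant and the least variable. Smo (mm9 chromosome 6, 29685497 to 29711366, plus strand, 3977 bp of exon) measured 22.4, 23.1, 15.8 and 21.7 RPKM in no-dox tumors 1 to 4, 20.4, 15.1, 16.5 and 19.3 RPKM in plus-dox tumors and 18.6, 12.5, 14.2 and 17.5 RPKM in off-dox tumors. No-dox tumors 1, 2 and 4 lay above every off-dox tumor, but no-dox tumor 3 lay inside the off-dox range. Means of 4 tumors were 20.7 ± 3.36 RPKM for no-dox and 15.7 ± 2.87 for off-dox (SD), and the log2 fold change was −0.37 with a standard error of 0.15. This had an unadjusted p of 0.031 and an adjusted p of 0.20 (edgeR), so it did not pass the limit of 0.1, and the exact permutation test of 4 against 4 tumors gave p = 0.086. With limma-voom and tumor weights the log2 fold change was −0.50 (limma-voom adjusted p = 0.052). That passed the limit of 0.1 but was a change of less than 1.5-fold. For plus-dox vs no-dox Smo differed by −0.21 on the log2 scale (standard error 0.15, edgeR adjusted p = 0.53).

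Hhip, the decoy for ligand, was low in most tumors. Hhip (mm9 chromosome 8, 82489750 to 82581907, minus strand, 9078 bp of exon) measured 0.240, 0.399, 1.01 and 0.143 RPKM in no-dox tumors 1 to 4, 0.360, 0.965, 0.231 and 0.706 RPKM in plus-dox tumors and 0.579, 0.596, 0.171 and 0.400 RPKM in off-dox tumors. Each group held both low and high tumors, over a 7.06-fold range. The log2 fold change was 0.33 for plus-dox vs no-dox (95% interval −1.06 to 1.72) and −0.02 for off-dox vs no-dox (−1.41 to 1.38), and no-dox tumor 3 carried the highest value of all.

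Gli1, the factor whose own transcription is the usual readout of the pathway, had overlapping groups. Gli1 (mm9 chromosome 10, 126767000 to 126778635, minus strand, 3600 bp of exon) measured 2.05, 2.05, 1.56 and 1.47 RPKM in no-dox tumors 1 to 4, 2.43, 0.907, 2.35 and 2.36 RPKM in plus-dox tumors and 4.04, 1.44, 1.58 and 1.69 RPKM in off-dox tumors. Of the plus-dox tumors, 3 lay above all no-dox tumors and tumor 2 lay below them all. The log2 fold change was 0.19 for plus-dox vs no-dox (standard error 0.36, edgeR adjusted p = 0.82) and 0.32 for off-dox vs no-dox (standard error 0.36, edgeR adjusted p = 0.63). Off-dox tumor 1 set the direction of the latter, which was −0.14 without it, and without plus-dox tumor 2 the former was 0.43 (edgeR adjusted p = 0.63).

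Gli2 was the one gene of the 8 with no overlap between 2 groups in log2 CPM. Gli2 (mm9 chromosome 1, 120730638 to 120950196, minus strand, 6708 bp of exon) measured 0.721, 0.822, 0.534 and 0.688 RPKM in no-dox tumors 1 to 4, 1.081, 0.924, 1.18 and 1.09 RPKM in plus-dox tumors and 1.77, 0.566, 0.551 and 0.721 RPKM in off-dox tumors. All plus-dox tumors lay above all no-dox tumors, while off-dox tumors 2 to 4 lay within the no-dox range and off-dox tumor 1 above every other tumor. Across all 17561 genes tested, 8.86% had no overlap for plus-dox vs no-dox, 11.5% for off-dox vs no-dox and 1.4% for off-dox vs plus-dox, so 1 of 8 for plus-dox vs no-dox is near this background. The log2 fold change for plus-dox vs no-dox was 0.64 (standard error 0.33, 95% interval −0.10 to 1.39) with an unadjusted p of 0.075 and an adjusted p of 0.41 (edgeR), and the exact permutation test gave 0.0286, the smallest p that 4 against 4 tumors allow. For off-dox vs no-dox the log2 fold change was 0.41 with all tumors and −0.13 without off-dox tumor 1. For off-dox vs plus-dox it was −0.23 with all tumors and −0.77 without off-dox tumor 1 (edgeR adjusted p = 0.98).

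Gli3 had a higher mean in both groups that had received dox, 2.0 ± 0.46 and 1.98 ± 0.54 RPKM, than in no-dox tumors, 1.43 ± 0.17 RPKM (SD, n = 4), though neither difference passed the test. Gli3 (mm9 chromosome 13, 15555556 to 15821858, plus strand, 8426 bp of exon) measured 1.55, 1.47, 1.53 and 1.19 RPKM in no-dox tumors 1 to 4, 1.60, 2.57, 1.65 and 2.19 RPKM in plus-dox tumors and 1.41, 2.0, 2.70 and 1.8 RPKM in off-dox tumors. In RPKM the plus-dox tumors all lay above the no-dox tumors, if by little, whereas in log2 CPM scaled by TMM (trimmed mean of M values) the lowest of them fell inside the no-dox range. Off-dox tumor 1 lay among the no-dox tumors on both scales. The log2 fold change was 0.49 for plus-dox vs no-dox (standard error 0.20, unadjusted p = 0.032, edgeR adjusted p = 0.34) and 0.50 for off-dox vs no-dox (standard error 0.20, unadjusted p = 0.032, edgeR adjusted p = 0.20). Both comparisons use the same 4 no-dox tumors. Without off-dox tumor 1, Gli3 passed for off-dox vs no-dox, with a log2 fold change of 0.63 and an edgeR adjusted p of 0.085. In that fit 789 of all genes were called, against 235 with all tumors, so the call came with a general rise in calls.

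**Figure D2:**
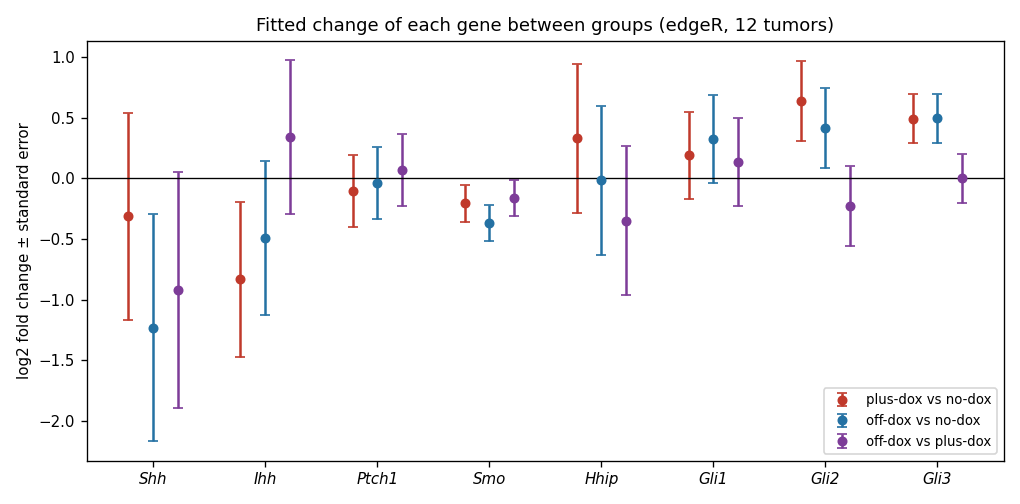
Log2 fold change (vertical axis) of each of the 8 genes in plus-dox vs no-dox, off-dox vs no-dox and off-dox vs plus-dox tumors, as points with bars of 1 standard error from one edgeR fit of 12 tumors. The bars are longest for Shh, Ihh and Hhip and shortest for Smo and Gli3, whose values for off-dox vs no-dox are −0.37 and 0.50.

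A gene was called where edgeR's adjusted p over all 17561 genes was under 0.1, the change exceeded 1.5-fold, the gene was longer than 250 bp, and its RPKM averaged over 0.25 across both groups. All 8 genes entered the test, but Shh, with group means of 0.026 to 0.065 RPKM, lay under the RPKM limit and could not be called, so the counts are of the other 7 genes. Of these, 0 were called for plus-dox vs no-dox, where 0% of all genes were called, 0 for off-dox vs no-dox, where 1.34% were called, and 0 for off-dox vs plus-dox, where 0% were called. At an unadjusted p under 0.05 the counts were 1 of 8 (Gli3) against 13.7% of all genes for plus-dox vs no-dox, 2 of 8 (Gli3 and Smo) against 20.4% for off-dox vs no-dox, and 0 of 8 against 3.06% for off-dox vs plus-dox. These shares are near the background of each comparison. After dox withdrawal, off-dox vs plus-dox, the log2 fold change was 0.34 for Ihh (95% interval −1.10 to 1.79), 0.07 for Ptch1 (−0.61 to 0.75), −0.16 for Smo (−0.50 to 0.18), −0.35 for Hhip (−1.74 to 1.05), 0.13 for Gli1 (−0.68 to 0.95) and 0.0015 for Gli3 (−0.46 to 0.46). Each interval includes 0, and those of Ihh and Hhip leave room for changes of more than 1 on the log2 scale in either direction. DESeq2 and limma-voom also called 0 of the genes in each comparison. Over all 17561 genes, DESeq2 without moderated fold changes called 128, 615 and 6 in the same order of comparisons, and limma-voom called 112, 641 and 0. With so few of all genes called, 0 calls here is near the background and says little about these genes. In limma-voom, Smo passed the adjusted p limit for off-dox vs no-dox (limma-voom adjusted p = 0.052) but not the 1.5-fold limit. The percentage of mapped reads that was counted separates the no-dox tumors from all others, so among tumors with like percentages neither comparison with no-dox can be repeated, and its part in the Gli3, Gli2 and Smo values was not tested.

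The other genes of the pathway were examined by role, as a list of 58 genes of which 57 were tested (Disp1 had no matching row). Of these, 0 were called in any of the 3 comparisons by edgeR, and 3, 6 and 0 had an unadjusted p under 0.05 for plus-dox vs no-dox, off-dox vs no-dox and off-dox vs plus-dox, where 13.7%, 20.4% and 3.06% of all genes did. The median log2 fold change of the list was 0.05, 0.06 and −0.03, beside 0.01, 0.01 and 0.00 for all genes tested.

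Among genes for ligand production and release, 7 of 8 were tested. The most abundant were Gpc3, a glypican that binds Hedgehog ligand, and Hhat, the enzyme that attaches palmitate to it. Gpc3 measured 6.49 ± 0.58 (no-dox), 4.88 ± 0.34 (plus-dox) and 4.97 ± 2.4 RPKM (off-dox; SD, n = 4). Its log2 fold change for plus-dox vs no-dox was −0.40 (standard error 0.30, edgeR adjusted p = 0.54). Hhat stayed between group means of 3.13 and 3.38 RPKM, with a log2 fold change of −0.10 for plus-dox vs no-dox. Disp2, a relative of the ligand release protein Disp1, showed a log2 fold change of 1.57 for plus-dox vs no-dox (standard error 0.58, unadjusted p = 0.019, edgeR adjusted p = 0.33) at 0.562 ± 0.58 against 0.192 ± 0.061 RPKM. It was singled out after its values were seen.

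Of the 5 other receptors and coreceptors, Gas1, Cdon and Boc, which present ligand to Ptch1, were the most abundant. Gas1 measured 9.23 ± 2.5 (no-dox), 12.3 ± 5.9 (plus-dox) and 7.86 ± 1.5 RPKM (off-dox; SD, n = 4), and for plus-dox vs no-dox it differed by 0.44 on the log2 scale (standard error 0.30, edgeR adjusted p = 0.51). Cdon was level, at 5.68, 5.63 and 5.36 RPKM in the 3 groups. Boc measured 1.25, 1.58 and 1.31 RPKM, with an edgeR adjusted p of 0.40 for plus-dox vs no-dox.

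The 17 cytoplasmic regulators, among them kinases and adaptors that act on Gli proteins, held 3 genes with an unadjusted p under 0.05 for off-dox vs no-dox, 3 of 17 being near the 20.4% of all genes. Csnk1a1, a casein kinase, showed −0.30 on the log2 scale (standard error 0.09, unadjusted p = 0.0058, edgeR adjusted p = 0.11), at 90.9 ± 8.6 RPKM against 114 ± 5.2 (SD, n = 4). Ulk3, a kinase that acts on Gli proteins, showed 0.60 on the log2 scale (standard error 0.19, unadjusted p = 0.0076, edgeR adjusted p = 0.12), and Adrbk1, the kinase also named Grk2, one of 0.27 (edgeR adjusted p = 0.14). Ulk3 and Adrbk1 were singled out after their values were seen. Prkar1a, a regulatory subunit of protein kinase A, and Spop, a ubiquitin ligase adaptor, had log2 fold changes of −0.19 and 0.02.

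Of 10 reported transcriptional targets other than the 8 genes, 0 had an unadjusted p under 0.05 in any comparison. The cell cycle genes Ccnd1 and Ccnd2 measured 104 ± 19 and 43.8 ± 7.6 RPKM without dox and 118 ± 45 and 34.9 ± 13 RPKM in plus-dox tumors (SD, n = 4). Sfrp1, a secreted Wnt binder, measured 5.14 ± 3.4 RPKM in no-dox and 12.8 ± 10 in plus-dox tumors, a log2 fold change of 1.33 with a standard error of 0.70 (edgeR adjusted p = 0.42). The 18 primary cilium genes had log2 fold changes from −0.43 to 0.27 for plus-dox vs no-dox, and Hspb11, the most abundant of them, had group means between 20.7 and 22.6 RPKM.

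**Figure D3:**
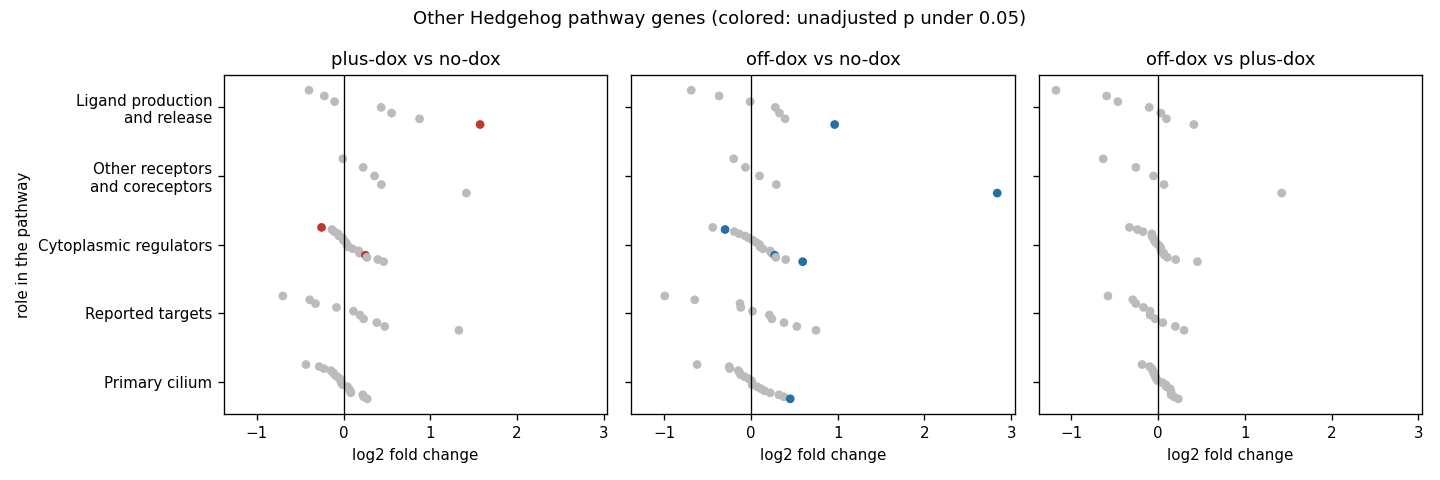
Log2 fold change (horizontal axis) of the 57 other pathway genes, in rows by role, for plus-dox vs no-dox, off-dox vs no-dox and off-dox vs plus-dox tumors, with genes at an unadjusted p under 0.05 in color (3, 6 and 0 genes). Cilium genes and cytoplasmic regulators gather near 0, while ligand processing genes, receptors and coreceptors, and targets spread wider. The receptor Lrp2, singled out after its values were seen, lies farthest out for off-dox vs no-dox (2.84) and off-dox vs plus-dox (1.42). Its mean level was 0.039 RPKM.

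How the 8 genes moved together was examined across the 12 tumors in log2 CPM. In this family of 28 pairs, 4 passed a Benjamini-Hochberg adjusted p under 0.05 for Pearson's r (permutation test, two-sided, 100000 resamples). Over deviations from group means 14 of the 28 passed, and without plus-dox tumor 2 and off-dox tumor 4 4 did (Ihh with Ptch1, Ihh with Gli3, Ptch1 with Gli2 and Gli1 with Gli2). Permuting deviations takes no account of the 3 fitted means, so those p-values are somewhat too small. The pairs share libraries, so depth and cell makeup are common to both genes of a pair.

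Ihh and Ptch1 moved together most closely. Pearson's r was 0.93 (permutation p = 3.0e-05, adjusted p = 0.00084) and Spearman's rho was 0.93 (permutation p = 6.0e-05, adjusted p = 0.0017). Without the 2 tumors farthest from the median of Ihh, off-dox tumor 1 and plus-dox tumor 2, r was 0.82, and without plus-dox tumor 2 and off-dox tumor 4 it was 0.84 (permutation, adjusted p = 0.027). Within the 4 tumors of a group, r was 0.98 (no-dox), 0.97 (plus-dox) and 0.99 (off-dox), and 0.97 over deviations from group means. Of the 14548 genes, 0.756% had a correlation with Ihh at least as high as that of Ptch1. For the other pairs that passed, the share of genes at least as far in the same direction was 3.14% for Ihh with Gli3, 1.75% for Smo with Gli3 and 4.72% for Ptch1 with Gli1. The ratio of Ptch1 to Ihh in RPKM was not constant, ranging from 1.36 in no-dox tumor 2 to 8.08 in plus-dox tumor 2.

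Gli3 ran opposite to Ihh. Pearson's r was −0.82 (permutation p = 0.00069, adjusted p = 0.0097) and Spearman's rho −0.86 (permutation p = 0.00071, adjusted p = 0.0099). Without off-dox tumor 1 and plus-dox tumor 2, r was −0.76, and it was −0.69 within no-dox, −0.92 within plus-dox and −0.83 within off-dox tumors. Gli3 also ran opposite to Smo, with r of −0.75 (permutation p = 0.0057, adjusted p = 0.040) and rho of −0.76 (permutation p = 0.0064, adjusted p = 0.060). Without off-dox tumors 2 and 3, which lie farthest from the median of Smo, that r was −0.73. This pair lost its call in 9 of the 12 fits that left out 1 tumor, and without plus-dox tumor 2 and off-dox tumor 4 it had r of −0.75 (permutation, adjusted p = 0.064).

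Ptch1 and Gli1, both targets of the pathway, had r of 0.81 (permutation p = 0.0017, adjusted p = 0.016) and rho of 0.64 (permutation p = 0.030, adjusted p = 0.093). Without off-dox tumor 1 and plus-dox tumor 2, r fell to 0.48, so this relation rests on those tumors, and without plus-dox tumor 2 and off-dox tumor 4 it was 0.68 (permutation, adjusted p = 0.11). Within no-dox tumors r was 0.20, against 1.00 (plus-dox) and 0.95 (off-dox). Over deviations from group means, with all tumors kept, r was 0.84 (permutation, adjusted p = 0.0064). Hhip, the other target among the 8, had r of −0.42 with Ptch1 and −0.13 with Gli1 (permutation, adjusted p = 0.28 and 0.69).

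Gli1 and Gli2 had r of 0.68 over 12 tumors (permutation p = 0.015, adjusted p = 0.069) and rho of 0.70 (permutation p = 0.014, adjusted p = 0.065), which did not pass. Plus-dox tumor 2, with the lowest Gli1 but a Gli2 of 0.924 RPKM, lay off the line of the others. Without off-dox tumor 1 and plus-dox tumor 2, r was 0.92. Without plus-dox tumor 2 and off-dox tumor 4 it was 0.95 (permutation, adjusted p = 0.0031). The ratio of Gli2 to Gli1 in RPKM was 1.02 in plus-dox tumor 2 and 0.34 to 0.50 in the other 11 tumors.

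**Figure D4:**
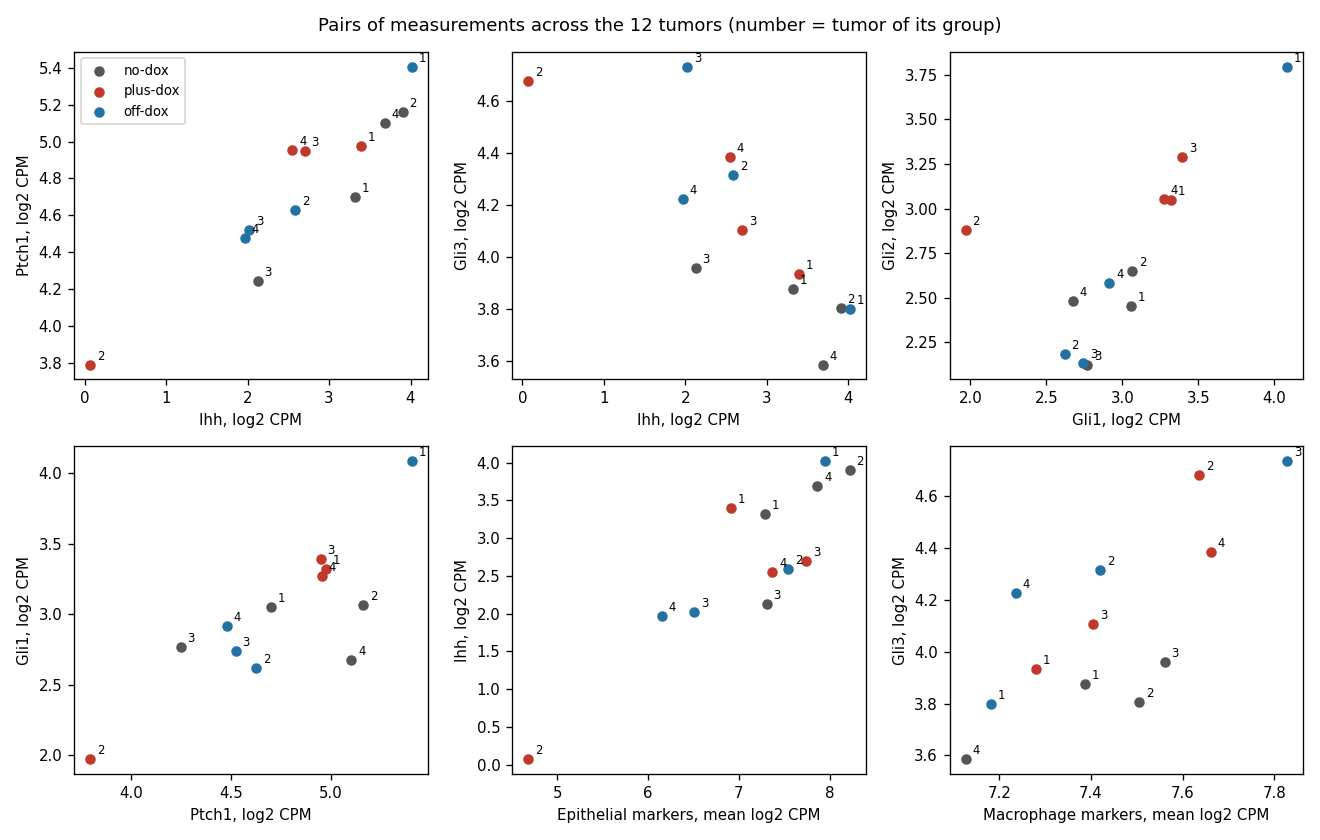
Log2 CPM of pairs of genes, or of a gene and the mean of a marker list, in the 12 tumors, colored by group and numbered by tumor. Ihh and Ptch1 rise together (r = 0.93), Ihh and Gli3 run opposite (r = −0.82), and plus-dox tumor 2 lies apart in the panels of Gli1 against Gli2 and of epithelial markers against Ihh.

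Each of the 8 genes was set against 10 marker lists of cell types a subcutaneous tumor can hold, 80 relations in all. Of these, 2 passed an adjusted p under 0.05, and both were with the epithelial list. Over deviations from group means 7 passed, and without plus-dox tumor 2 and off-dox tumor 4 the count was 0. Ihh had r of 0.89 with the epithelial score (permutation p = 0.00033, adjusted p = 0.026) and rho of 0.82 (permutation p = 0.0019, adjusted p = 0.077). Ptch1 had r of 0.83 (permutation p = 0.0010, adjusted p = 0.040) and rho of 0.79 (permutation p = 0.0032, adjusted p = 0.086). Plus-dox tumor 2 and off-dox tumor 4 are also the 2 tumors farthest from the median of that score. Without them r was 0.65 for Ihh and 0.62 for Ptch1 (permutation, adjusted p = 0.41 and 0.45), so neither call held. Leaving out single tumors also ended the call, in 6 of 12 fits for Ihh and in 9 of 12 for Ptch1. Over deviations from group means r was 0.86 for Ihh and 0.88 for Ptch1 (permutation, adjusted p = 0.012 for each). Within no-dox, plus-dox and off-dox tumors it was 0.77, 0.89 and 0.89 for Ihh and 0.86, 0.96 and 0.81 for Ptch1. Of all 14548 genes, 2.89% had an r with the epithelial score at least as high as that of Ihh and 5.29% as that of Ptch1. Of the 10 epithelial markers, all had a mean over 1 RPKM and 0 were at 0 in all tumors. Their summed level was 2311 to 3095 RPKM in no-dox, 1364 to 2034 in plus-dox and 1067 to 2662 in off-dox tumors, and Epcam alone ran from 7.76 to 388 RPKM. Every plus-dox sum thus lay under every no-dox sum, while the mean log2 CPM overlapped (4.68 to 7.74 and 7.29 to 8.22). By fitted fold change, 1 of the 10 was higher in plus-dox and 1 in off-dox than in no-dox tumors. In plus-dox vs no-dox, 8 of 8 endothelial, 8 of 8 skeletal muscle, 10 of 12 fibroblast and 0 of 7 adipocyte markers were higher. So were 6 of 7 pericyte and smooth muscle, 5 of 7 macrophage and 3 of 4 tested cartilage and bone markers. For epidermis and hair follicle the count was 2 of 8 tested, and for Schwann cells 1 of 5. In each list 0 markers were called for this comparison. Every endothelial marker had its highest RPKM in plus-dox tumor 2. The median adipocyte score, unlike the fitted changes, was higher with dox (4.56 against 3.91 in log2 CPM). The part of cell makeup in the comparisons with no-dox was not tested.

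Against the macrophage list, Gli3 had r of 0.76 (permutation p = 0.0044, adjusted p = 0.088) and rho of 0.76 (permutation p = 0.0054, adjusted p = 0.11), which did not pass. Over deviations from group means r was 0.89 and did pass (permutation, adjusted p = 0.0088), and it was 0.91, 0.91 and 0.92 within no-dox, plus-dox and off-dox tumors, while without no-dox tumor 4 and off-dox tumor 3 it was 0.53. The 7 macrophage markers summed to 773 to 1073 RPKM in no-dox, 792 to 995 in plus-dox and 736 to 1243 in off-dox tumors, ranges that overlap. Gli3 also had r of 0.70 with the skeletal muscle list (adjusted p = 0.11) and Smo one of −0.74 (adjusted p = 0.091, both by permutation). All 8 muscle markers were detected, at summed levels of 8.53 to 161 RPKM in no-dox, 133 to 437 in plus-dox and 9.69 to 1159 in off-dox tumors. Off-dox tumors 2 and 3, which had the highest muscle scores (7.31 and 8.03 in log2 CPM), had the lowest Smo of the 12 and Gli3 of 2.0 and 2.70 RPKM. The part of muscle or macrophages in these values was not tested.

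The fibroblast list stands for the stromal cells that answer Hedgehog ligand in textbook accounts. Against it, Gli1 had r of −0.35, Gli2 of 0.12, Hhip of 0.62, Ptch1 of −0.63 and Ihh of −0.71. None of these passed adjustment (permutation, adjusted p = 0.47, 0.78, 0.18, 0.18 and 0.11). Over deviations from group means r of Ihh was −0.77 and passed (permutation, adjusted p = 0.047), whereas without no-dox tumor 3 and plus-dox tumor 2 it was −0.25 over all groups. All 12 fibroblast markers had a mean over 1 RPKM, with summed levels of 1253 to 2256 RPKM in no-dox, 1762 to 3322 in plus-dox and 1442 to 1649 in off-dox tumors. Of the relations that did not pass, Ihh with the endothelial list had the lowest adjusted p. Its r was −0.83 and its rho −0.58 (permutation, adjusted p = 0.076 and 0.35). Over deviations from group means r was −0.82 and passed (permutation, adjusted p = 0.028). Without plus-dox tumor 2 and off-dox tumor 4 it was −0.45 (permutation, adjusted p = 0.61).

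**Figure D5:**
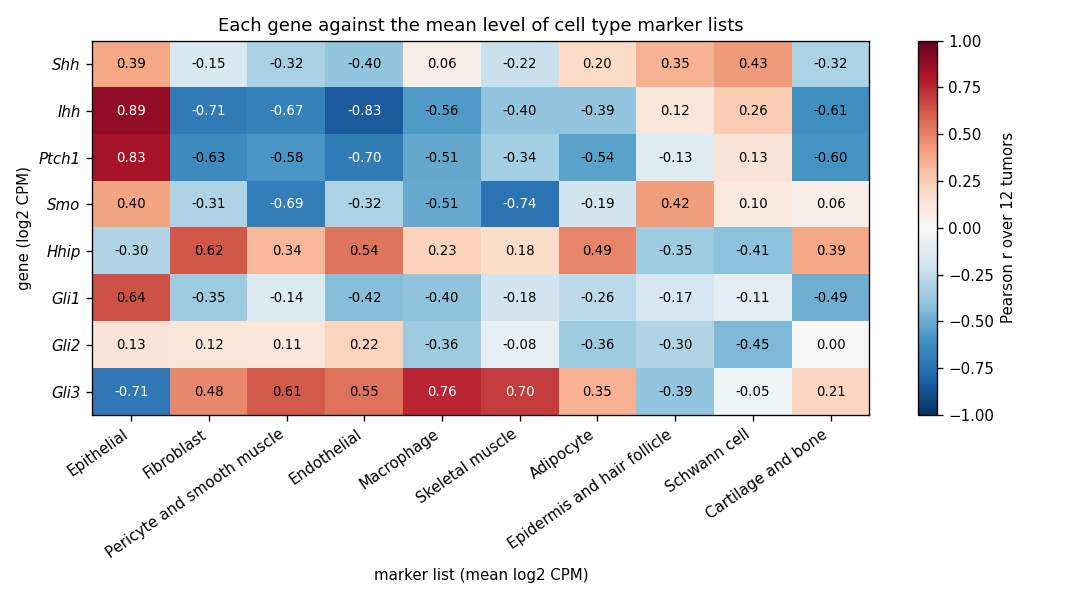
Pearson r over 12 tumors between each of the 8 genes (rows, log2 CPM) and the mean log2 CPM of 10 cell type marker lists (columns), printed in each cell. The strongest positive values are those of Ihh and Ptch1 with the epithelial list (0.89 and 0.83), and Gli3 has the opposite sign (−0.71) there.

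The genes whose pattern was most like each of the 8 genes other than Shh, which was too low to rank, were sought by Pearson r over the 12 tumors among 14548 genes, as a description. Ihh was most like Rap1gap (r = 0.98), Hsd11b2 (0.97) and Ngef (0.97), and Ptch1 was most like Zfp618 (0.96), Phldb3 (0.95) and AW555464 (0.95). Smo was nearest to Mid1ip1 (0.94), Ankmy2 (0.93) and F8a (0.92). Gli3 was most like Lcp2 (0.97), an adaptor of blood cells, Itsn1 (0.96) and 1700025G04Rik (0.95). The nearest genes were less close for Gli1 (Hmcn1, 0.89), Hhip (Cebpe, 0.88) and Gli2 (Galr2, 0.87). The 10 reported targets had r with Ihh of both signs, namely 0.93 for Ccnd2, 0.88 for Mycn, 0.86 for Bcl2, 0.79 for Bmp4, 0.43 for Jag2, −0.18 for Foxf1a, −0.31 for Foxf2, −0.58 for Foxl1, −0.82 for Ccnd1 and −0.87 for Sfrp1. Of the 3 most abundant, Ccnd2 had r of 0.64 with Gli1, Ccnd1 of −0.65 and Sfrp1 of −0.53. Over the 10 tumors without plus-dox tumor 2 and off-dox tumor 4, r with Gli1 was 0.25, −0.65 and −0.25. Without plus-dox tumor 2 and off-dox tumor 4, r with Ihh was 0.85 for Ccnd2, −0.75 for Ccnd1 and −0.78 for Sfrp1. Of the coreceptors, Gas1 had r of −0.84 with Ihh over 12 tumors and −0.59 over 10, Cdon of 0.56 and −0.12, and Boc of −0.67 and −0.39.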

How the data were processed

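Poly(A) RNA from 12 tumors was sequenced as 50-bp single-end reads. The authors mapped reads to mm9 with TopHat (version 1.4.1 in the submitters' processing notes) and reduced RefSeq to 1 unstranded model per gene. The deposited expected count is the authors' base-wise exonic coverage expressed in reads, unnormalized and not always whole. The deposited RPKM was computed by the authors per exon length and mapped read total. Reads of overlapping and antisense genes cannot be told apart, and duplicate handling is not given in the sources used here.

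Expected counts were rounded and tested with edgeR (4.0.16, R 4.3.3), by quasi-likelihood in one fit of the 3 groups, using TMM and genes with at least 10 counts in all, with Benjamini-Hochberg adjustment over 17561 genes. Standard errors are the fold change over the square root of F, and 95% intervals use 9 degrees of freedom among tumors. Log2 CPM has a prior count of 2. Exact permutation tests are two-sided over 70 arrangements. Depth was 19845923 to 33137609 counted reads, and the limit of 3 counts covers counting error only. Alternatives were DESeq2 (1.42.0), limma-voom (3.58.1), RLE scaling, other count filters, an adjusted p under 0.05, fits of 8 tumors, a replicate block, each tumor left out, and plus-dox tumor 2 with off-dox tumor 4 left out. Models were tested on simulated data. File coordinates start at 0 and are given from 1.

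The members were selected by name, and they and the lists were chosen with earlier results of these data known. Named genes are the 8 members, the 3 most abundant genes of each pathway role (described in part), and the 3 genes most like each member except Shh. The remaining targets are named where all 10 are listed, and others are marked as singled out after their values were seen. An allele that all groups share is not reported here.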

Additional observations from a re-analysis of the deposited data

Results flagged for a closer look

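In 5 of 24 groups of 4 tumors (8 genes in 3 groups), the highest or lowest RPKM stood apart from the other 3 by Dixon's test at the 95% level, which chance alone does in about 1 in 20 groups, and the groups share tumors, so they are not independent. Plus-dox tumor 2 had the lowest Ptch1 of its group, 2.72 RPKM, with the nearest tumor at 5.82. The same tumor had the lowest Gli1, 0.907 RPKM, with the nearest at 2.35. It also had the lowest epithelial marker score of the 12 tumors, 4.68 in log2 CPM. Off-dox tumor 1 had the highest Ptch1 of its group, 8.46 RPKM, with the nearest at 4.87. It had the highest Gli1, 4.04 RPKM, with the nearest at 1.69, and the highest Gli2, 1.77 RPKM, with the nearest at 0.721. Its epithelial score was 7.95, within the 7.29 to 8.22 of the no-dox tumors. The causes were not tested.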

How the results depend on the processing

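Of the recomputed fold changes, 484 kept their direction and side of the threshold, 40 turned and 1 gained a call. With limma-voom and tumor weights the log2 fold change turned for Ptch1 (0.069) in plus-dox vs no-dox, Hhip (0.52) in off-dox vs no-dox, and Ptch1 (−0.13) and Gli1 (−0.22) in off-dox vs plus-dox. Without plus-dox tumor 2 and off-dox tumor 4 it turned for Shh (0.11), Ptch1 (0.11) and Hhip (−0.077) in plus-dox vs no-dox, Ptch1 (0.064) and Hhip (0.010) in off-dox vs no-dox, and Ptch1 (−0.043), Hhip (0.088) and Gli1 (−0.0096) in off-dox vs plus-dox. None of these had been called, and the cause was not tested. Equal tumor numbers did not pair tumors, as deviations from group means correlated at −0.09 on average over 12 same-numbered pairs (−0.45 to 0.57) and 0.04 over 36 others. With the replicate number as a block, Hhip was 0.093 in off-dox vs no-dox and Gli3 −0.012 in off-dox vs plus-dox, 0 of the 8 genes were called, and the block ended all 235 calls over all genes for off-dox vs no-dox, leaving 0. On the log2(RPKM + 0.1) scale 2 of the 8 genes, in place of 1, did not overlap between plus-dox and no-dox tumors. Leaving out each tumor in turn, the calls among the 8 genes for off-dox vs no-dox numbered 0 to 1 (Gli3 without off-dox tumor 1). Genes without overlap between the groups numbered 1 to 3 for plus-dox vs no-dox, 0 to 1 for off-dox vs no-dox and 0 to 1 for off-dox vs plus-dox. The share of all genes without overlap was not computed with a tumor left out or on the log2(RPKM + 0.1) scale. Smaller groups also separate more easily, so these counts cannot be set against a background. Fold changes that turned ranged, for plus-dox vs no-dox, from −1.05 to 0.46 for Shh, −0.26 to 0.11 for Ptch1 and −0.073 to 1.15 for Hhip. For off-dox vs no-dox they ranged from −0.30 to 0.086 for Ptch1, −0.31 to 0.80 for Hhip, −0.14 to 0.48 for Gli1 and −0.13 to 0.59 for Gli2. For off-dox vs plus-dox they ranged from −0.36 to 0.77 for Ihh, −0.20 to 0.17 for Ptch1, −0.60 to 0.058 for Hhip, −0.33 to 0.29 for Gli1 and −0.17 to 0.15 for Gli3. Over all genes, calls for off-dox vs no-dox ranged from 0 to 789 (without off-dox tumor 1). DESeq2 without moderated fold changes called 128, 615 and 6 genes in the 3 comparisons and limma-voom 112, 641 and 0, against 0, 235 and 0 with edgeR. Among the correlations, r of Ihh with Ptch1 (0.86 to 0.95) and with Gli3 (−0.86 to −0.78) passed with each tumor left out, while r of Ihh with the epithelial list (0.72 to 0.92) lost its call in 6 of 12, r of Ptch1 with that list (0.67 to 0.91) and of Smo with Gli3 (−0.82 to −0.69) in 9 of 12, and r of Ptch1 with Gli1 (0.68 to 0.91) in 2 of 12. Shh, with at most 13 counts in a tumor, allows no firm comparison at this depth.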
